A study of Mus musculus with 15 samples.

Results

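The transcripts of 10 enzymes that make fatty acids, lengthen them and insert double bonds were followed in cultured mouse spermatogonial stem cells during removal and return of GDNF. The genes were Acly, Acss2, Me1, Acaca, Fasn, Elovl6, Scd1, Scd2, Fads1 and Fads2. They were taken by symbol from the platform annotation and are 10 of the 18194 genes named there. The set was chosen with earlier results of these data known. A probe set is a group of short array probes read together as 1 value, and 27 of the 45101 probe sets on the array named 1 of these genes and no other. Of the 27, 24 passed a filter on dim signal and were tested, with at least 1 for each of the 10 genes.

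Cells build fatty acids from acetyl-CoA. ATP citrate lyase (Acly) and the acetyl-CoA synthetase Acss2 supply it, acetyl-CoA carboxylase (Acaca) commits it to synthesis, and fatty acid synthase (Fasn) assembles palmitate with NADPH that malic enzyme (Me1) helps to provide. The elongase Elovl6 lengthens palmitate to stearate, stearoyl-CoA desaturases (Scd1, Scd2) make monounsaturated fatty acids, and the desaturases of Fads1 and Fads2 act on polyunsaturated ones. Many of these genes are textbook targets of the SREBP transcription factors, which respond to sterols, to insulin and to other growth factor signals.

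The cells were enriched for spermatogonial stem cells, the stem cells of the male germline, and came from C57BL/6 males 6 days of age. All 5 groups were established in a serum-free medium. Maintained cultures always had GDNF (glial cell line-derived neurotrophic factor), its soluble co-receptor GFRalpha1 and bFGF. Withdrawal cultures spent 18 h without GDNF and GFRalpha1, and in the replacement groups both were then returned for 2, 4 or 8 h; whether bFGF stayed in the medium during those steps is not stated in the labels. Each group had 3 arrays, 15 in all. Nothing in the labels ties a replicate to a culture of its own; p-values therefore measure only the spread between arrays, which may be technical. No group was handled alike without getting the factors back, so return of the factors cannot be told apart from handling or added time.

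Values are MAS5 signal, a brightness in arbitrary units on a linear scale that the authors computed from each probe set. Differences are on the scale of log2(signal + 16), which makes the folds of dim probe sets smaller. They come from limma, with Benjamini-Hochberg adjustment over the 27023 probe sets tested, and "called" means an adjusted p under 0.05. With 3 arrays against 3, an exact permutation test cannot go below p = 0.1. Different probe sets bind with different strength, so signals are compared between groups within a probe set and never between genes.

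Median signal per array ran from 42.5 to 55.8, with every array scaled to a trimmed mean of 150. The germ cell genes Dazl (signal 4112 to 7640) and Ddx4 (831 to 1410) were bright on all 15 arrays. The adipocyte genes Adipoq, Lep, Cidec and Pparg did not exceed 27.6, 14.3, 23.2 and 7.7 on any array and were left out as dim. The adipocyte genes that passed the filter were Fabp4 (15.1 to 52.8) and Retn (48.7 to 169.9); neither was called in any comparison, and both were above every maintained array at 8 h of replacement. Withdrawal replicate 3 stood apart in RNA quality. Its beta-actin 3' to 5' signal ratio, which rises when RNA is shortened or poorly copied, was 2.77, against 1.1 to 1.75 on the other arrays. The next highest were 1.75 and 1.52, on 4 h replicates 3 and 2, and the rest did not exceed 1.34. The members' calls and sign counts that rest on withdrawal arrays are therefore also given without withdrawal replicate 3.

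**Figure D1:**
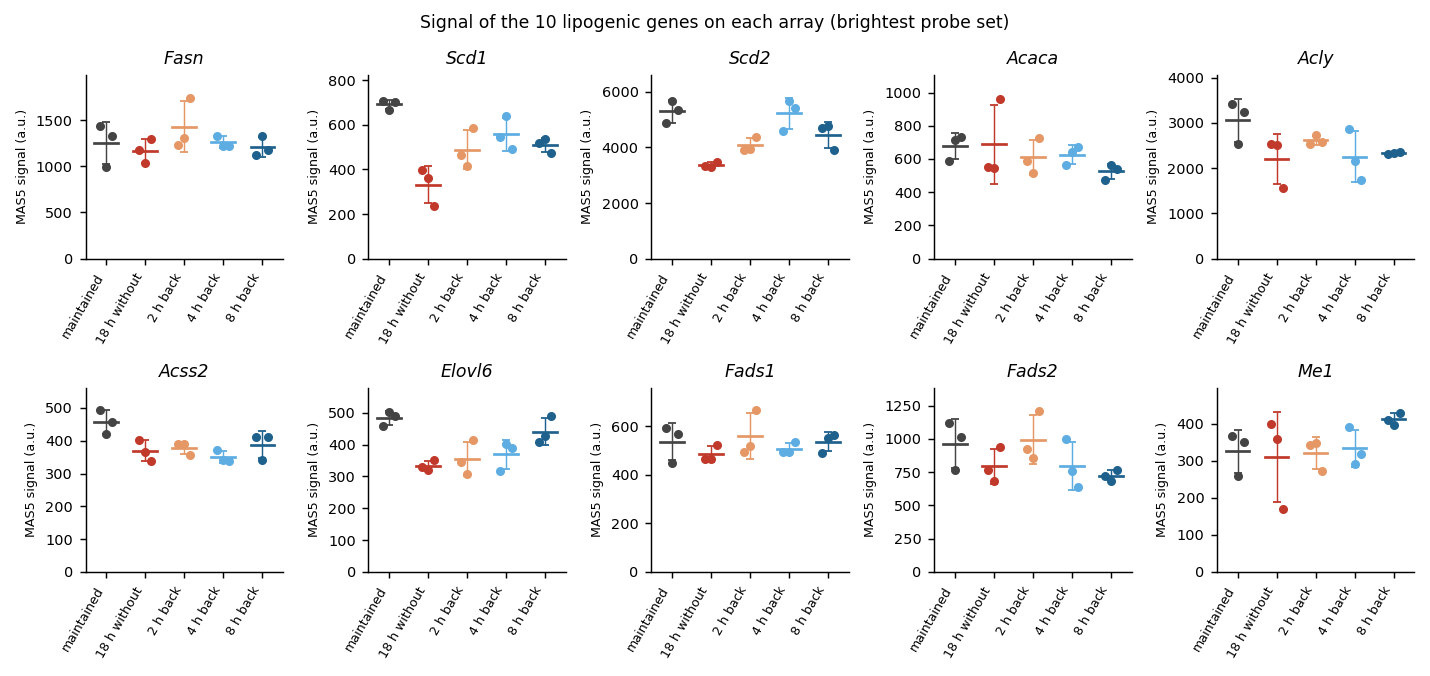
MAS5 signal (arbitrary units, linear axis from 0) of the brightest probe set of each of the 10 genes, by group. Points are single arrays, horizontal lines the group means and error bars the SD (n = 3); for Scd1, Scd2 and Elovl6 every withdrawal array lies below every maintained array, while for Fasn and Acaca the groups overlap.

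The first comparison asked what 18 h without GDNF and GFRalpha1 did to the enzymes. Both stearoyl-CoA desaturase genes and the elongase Elovl6 fell, and no enzyme of the earlier steps was called. Scd1 fell 2.08-fold, Scd2 1.56-fold and Elovl6 1.43-fold. Counted by probe set, 4 of 24 were called lower and 0 higher, against 4.42% of all probe sets called in either direction, 2.08% called lower and 2.34% called higher. With each gene taken at its brightest probe set, 3 of 10 were called and all 10 differences were below 0. That sign was not held by 3 uncalled genes. Acaca lay at 0.01 to 0.11 without maintained replicate 2 or 3 or withdrawal replicate 1 or 2, and Fasn at 0.02 without maintained replicate 1. Me1 lay at 0.22 without withdrawal replicate 3, 0.12 with array weights, 0.19 with the beta-actin covariate and 0.08 as the mean of its probe sets. Over all probe sets 1195 were called, and 488 to 1043 with 1 array left out. The median difference of the 10 genes was -0.28 on the log2 scale, against 0.0626 for all probe sets. In 4 of the 10 genes (Scd1, Scd2, Elovl6 and Acss2) the 3 withdrawal arrays lay wholly below the maintained ones, as did 8.91% of all probe sets. Less RNA per cell and fewer cells holding the RNA cannot be told apart in these bulk samples.

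Scd1 encodes the desaturase that introduces the first double bond into stearate and palmitate. Its probe set 1415964_at read 705.4, 666.3 and 703.9 in maintained cultures and 396.8, 361.5 and 237.8 after withdrawal. The groups were far apart, and withdrawal replicate 3 was the lowest array of all. The means were 692 ± 22.2 and 332 ± 83.5 (SD, n = 3), a log2 difference of -1.05 (limma adjusted p = 0.0032). Without withdrawal replicate 3 the difference was -0.84 (adjusted p = 0.00691). The other Scd1 probe set, 1415965_at, read 612.8, 519.0 and 463.6 in maintained cultures and 255.4, 225.9 and 214.0 after withdrawal, so its groups did not overlap either. It gave a log2 difference of -1.14 (adjusted p = 0.00424), and -1.09 (0.0141) without withdrawal replicate 3. When only the 2 groups compared were fitted, the first probe set missed the threshold (adjusted p = 0.0606) and the other did not (0.0248).

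Scd2 is a desaturase of the same reaction, best known from brain and from early development. Probe set 1415822_at read 4872.1, 5673.0 and 5361.3 in maintained cultures and 3325.7, 3315.4 and 3495.6 after withdrawal. The withdrawal arrays were close to each other and all lay below the lowest maintained array. The means were 5302 ± 404 and 3379 ± 101, a log2 difference of -0.65 (adjusted p = 0.0109), and -0.67 (0.0149) without withdrawal replicate 3. The other probe sets of Scd2 were not called: 1415823_at gave -1.08 (adjusted p = 0.237) and 1415824_at gave -0.29 (0.708). Both were widely spread within groups. In maintained cultures 1415823_at read 2360.0, 979.1 and 1612.7, and after withdrawal 1193.3, 1216.2 and 257.9, with replicate 3 far below the rest; without that array its difference was -0.36. Over the 15 arrays, 1415823_at and 1415824_at correlated with 1415822_at at r = 0.167 and -0.179, so the Scd2 result rests on 1 of its 3 probe sets. With the mean of the probe sets in place of the brightest, Scd2 was not called (adjusted p = 0.116), nor was it when only the groups compared were fitted (0.134).

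Elovl6 extends palmitate to stearate, the substrate of the desaturases. Probe set 1417404_at read 459.2, 502.1 and 491.5 in maintained cultures and 328.8, 321.4 and 350.7 after withdrawal. Within each group the arrays were close together, and the groups did not overlap. The log2 difference was -0.52 (484 ± 22.3 against 334 ± 15.2, adjusted p = 0.0413). This was a narrow call: leaving out any 1 of the 6 arrays kept the difference between -0.55 and -0.49 but moved the adjusted p to between 0.0583 (without withdrawal replicate 3) and 0.126 (without maintained replicate 2). The other Elovl6 probe sets gave -0.45 for 1417403_at (adjusted p = 0.159) and -0.42 for 1442656_at (0.304). All 3 probe sets of the gene thus had lower means after withdrawal, with 1 called.

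The start of Elovl6 can be set beside that of Fasn, which was not called and whose promoter is a classic target of NF-Y and the SREBPs. RefSeq promoter sequences (build GRCm38.p6) were matched for 7 of the 10 genes, in 8 windows of the 250 bases before an annotated start. No sequence was matched for Scd1, Scd2 or Fads1. The motif counts below therefore leave out both stearoyl-CoA desaturase genes, and Elovl6 is the only gene called lower that has a window. The 2 windows below belong to 1 gene called lower and 1 that was not. Of the windows of genes not called, that of Fasn held the most CCAAT matches. Fasn lies on the minus strand of chromosome 11 (chr11:120824548-120824797) and Elovl6 on the plus strand of chromosome 3 (chr3:129532136-129532385). Capitals mark the CCAAT box, the letters CCAAT on either strand, so that ATTGG counts as well.
Fasn: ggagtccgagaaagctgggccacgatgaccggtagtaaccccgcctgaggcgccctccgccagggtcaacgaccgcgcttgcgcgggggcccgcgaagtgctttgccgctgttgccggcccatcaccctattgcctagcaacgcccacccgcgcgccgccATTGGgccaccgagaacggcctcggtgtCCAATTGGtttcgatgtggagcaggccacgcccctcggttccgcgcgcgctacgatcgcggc
Elovl6: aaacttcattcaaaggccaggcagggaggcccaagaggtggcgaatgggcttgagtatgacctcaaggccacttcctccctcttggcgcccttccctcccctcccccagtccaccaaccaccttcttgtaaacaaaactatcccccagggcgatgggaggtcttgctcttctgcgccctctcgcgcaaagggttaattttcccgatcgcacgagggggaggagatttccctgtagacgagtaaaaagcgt
The Fasn window held 3 CCAAT matches, beginning 90, 62 and 59 bases before the start, the last of them overlapping on opposite strands. The Elovl6 window held none. The windows of Acaca, Acly and Fads2, genes not called, and 1 of the 2 Me1 windows also held none. Of the 8 windows, 3 held a CCAAT match, belonging to Fasn, Acss2 and 1 of the 2 starts of Me1, against 33.8% of 32851 mouse promoter windows of the same length. The E-box CACGTG, searched on both strands, was in 0 of 8 windows and in 6.02% of all. The GC box GGGCGG was in 4 of 8 windows, against 32.7% of all. These are matches of letters, with no measurement of binding.

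Fasn and Acaca, the enzymes of the committed steps, were not called. Fasn read 1438.7, 996.4 and 1326.1 in maintained cultures and 1172.6, 1035.6 and 1296.7 after withdrawal. Its withdrawal arrays all lay within the range of the maintained ones, and the log2 difference was -0.09 with a 95% interval from -0.43 to 0.25 (adjusted p = 0.809). For Acaca, probe set 1434185_at read 589.5, 714.8 and 732.4 against 549.9, 547.7 and 963.8. The high value is withdrawal replicate 3. On that array the gene's other probe set, 1427595_at, was the lowest of the 3 at 60.7, beside 258.1 and 280.4. The probe sets of Acaca ran in opposite directions over the 15 arrays (r = -0.813), and neither was called, at log2 differences of -0.03 (95% interval -0.44 to 0.38) and -0.23 (-1.25 to 0.79). Without that array they gave -0.29 and 0.40.

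The enzymes that supply acetyl-CoA and NADPH were not called, and their brightest probe sets gave values below 0. Acly probe set 1451666_at read 3421.6, 2522.5 and 3233.4 in maintained cultures and 2534.0, 2514.7 and 1558.6 after withdrawal. Its lowest array was again withdrawal replicate 3, and the log2 difference was -0.49 (95% interval -0.91 to -0.07, adjusted p = 0.171). Without that array it was -0.26 (adjusted p = 0.438). The other tested Acly probe sets gave -0.28, -0.80 and 0.06. Acss2, which makes acetyl-CoA from acetate, read 492.8, 419.2 and 457.3 against 403.8, 366.6 and 339.1. Its withdrawal arrays were all below the maintained ones, at a log2 difference of -0.29 (95% interval -0.55 to -0.03, adjusted p = 0.189). The other tested Acss2 probe set, 1422478_a_at, read 234.3, 406.7 and 273.6 against 200.1, 211.3 and 413.2. Its groups overlapped, at -0.18 (95% interval -0.73 to 0.37, adjusted p = 0.755). Me1 gave -0.14 and 0.29 for its 2 probe sets, neither called. Acly probe sets 1438389_x_at and 1439445_x_at and Acss2 probe set 1446542_at had mean signals of 11.4, 6.08 and 19.5 and were left out as dim.

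The desaturases of polyunsaturated fatty acids were not called either. Fads1, the delta-5 desaturase, gave log2 differences of -0.13 for both of its probe sets; the brighter one read 590.9, 448.0 and 569.9 in maintained cultures and 465.9, 465.1 and 522.1 after withdrawal. Fads2, the delta-6 desaturase, gave -0.27 (95% interval -0.67 to 0.13), -0.59 and -0.16 for its 3 probe sets. The Fads2 probe set 1419031_at read 1121.2, 763.6 and 1011.9 against 768.7, 680.9 and 940.0, and its groups overlapped. Whether the fall of Scd1 differed from the change of Fasn or Fads1 was not tested.

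**Figure D2:**
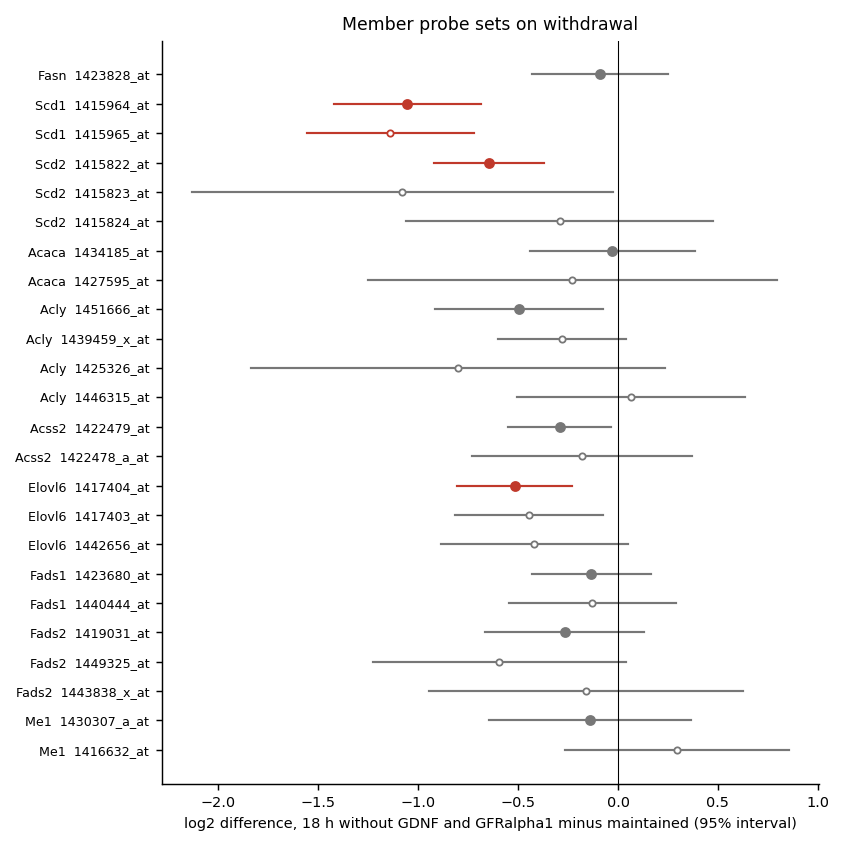
Log2 difference of withdrawal minus maintained cultures with its 95% interval for the 24 tested probe sets of the 10 genes. Large filled points are the brightest probe set of a gene and red marks the 4 called; 22 of the 24 estimates lie below 0, and the widest intervals belong to Scd2 1415823_at, Acly 1425326_at and Acaca 1427595_at.

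Other measures moved with withdrawal. Withdrawal replicate 3 was the lowest of its group in 11 of the 24 probe sets and the highest in 12. Its ratio to the mean of the other withdrawal arrays ran from 0.214 (Scd2 1415823_at) and 0.225 (Acaca 1427595_at) to 1.94 (Fads2 1443838_x_at) and 2.01 (Acss2 1422478_a_at). With the beta-actin ratio as a covariate, Scd1 gave -0.91 (adjusted p = 0.00301), Scd2 -0.71 (0.00338) and Elovl6 -0.59 (0.0177). Of all probe sets, 2.08% were called lower on withdrawal and 2.34% higher. Of the spermatogonial markers, 5 of 13 tested were called lower (Bcl6b, Etv5, Id4, Gfra1 and Epcam) and 1 higher (Zbtb16). The summed signal of the spermatogonial markers was 15796, 15999 and, on replicate 3, 13794 on the withdrawal arrays. It ran from 18046 to 19519 on the maintained ones, and its part in the result was not tested. The 5 markers called lower are in that sum, so it does not measure the number of spermatogonia alone. Of the 13 markers, 5 had differences above 0 and 8 below. Ddx4, a general germ cell marker, was at 1169 after withdrawal and 1175 in maintained cultures, and Dazl was at 5682 against 6875. Sall4 was at 1101 against 1012, Lin28a at 226 against 177 and Tex14 at 1361 against 1170. Of the 14 fibroblast markers tested, 0 were called by limma and 0 had an unadjusted p under 0.05. The fibroblast sum was 9707, 9596 and, on replicate 3, 15214 after withdrawal, against 10268 to 13288 in maintained cultures. Markers of Sertoli cells (8 tested), of Leydig or peritubular cells (3) and of endothelium or blood (5) gave 0 calls by limma, with 2, 0 and 2 at an unadjusted p under 0.05, against 20.1% of all probe sets. The summed signal of the Sertoli list was higher on every withdrawal array, at 665.5 to 724.1 against 505.5 to 623.0, with 7 of the 8 genes above 0. The Leydig and peritubular sums overlapped (236.3 to 276.4 against 178.3 to 317.2), as did those of endothelium and blood (247.6 to 334.7 against 331.5 to 344.5). The part of these cells in the result was not tested. Of 10 meiotic and haploid germ cell genes, 1 was called higher (Rec8), against 2.34% of all probe sets.

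The return of the factors was compared with withdrawal at each time. These comparisons share the 3 withdrawal arrays, and with them replicate 3. At 2 h, limma called 0 of the 24 probe sets, against 0.0407% of all probe sets called. At an unadjusted p under 0.05 there were 2, against 7.37% of all. Of the 10 genes, 9 had values above withdrawal, with a median log2 difference of 0.232 against -0.0325 for all probe sets. Without withdrawal replicate 3 there were 8, with a median of 0.189, and 3 genes changed sign: Me1 from 0.13 to -0.23, Acss2 from 0.04 to -0.02 and Acaca from -0.13 to 0.13. Scd1 probe set 1415964_at read 463.4, 417.8 and 585.6, each above the highest withdrawal array and below the lowest maintained one (log2 difference from withdrawal 0.55, adjusted p = 0.531, and 0.34 without withdrawal replicate 3). Scd2 probe set 1415822_at read 3926.1, 3947.6 and 4382.2, likewise between the groups (0.27 on the log2 scale). Elovl6 read 345.6, 308.9 and 414.4, which overlapped withdrawal, and Fasn read 1231.6, 1305.7 and 1743.4 (0.27, adjusted p = 0.726).

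At 4 h Scd2 was higher than after withdrawal by its brightest probe set, 1415822_at, whose arrays overlapped the maintained ones. It was the 1 probe set called of 24, against 0.877% of all probe sets called and 0.614% called higher. Its arrays read 4610.8, 5684.3 and 5407.4, all above the withdrawal arrays, and the mean was 1.54-fold higher (log2 difference 0.62, adjusted p = 0.0372). The other Scd2 probe sets were not called, at 0.74 for 1415823_at (adjusted p = 0.474) and 0.05 for 1415824_at (0.964). Scd1 read 544.6, 638.3 and 490.8, above every withdrawal array and below every maintained one, and its log2 difference of 0.74 missed the threshold (adjusted p = 0.0555). Elovl6 read 318.1, 403.2 and 389.1 and overlapped withdrawal. Over the 10 genes the median was 0.0889, with 7 above 0, against -0.0489 for all probe sets. Without withdrawal replicate 3 there were again 7 (median 0.146), but 4 genes changed sign: Acly from 0.04 to -0.19, Me1 from 0.18 to -0.18, Acaca from -0.09 to 0.18 and Fads2 from -0.01 to 0.12. The Scd2 call was lost without withdrawal replicate 1 (adjusted p = 0.0972), withdrawal replicate 2 (0.0947), 4 h replicate 2 (0.163) or 4 h replicate 3 (0.118), while the log2 difference stayed between 0.56 and 0.71. Without withdrawal replicate 3 it was kept at 0.65 (adjusted p = 0.0337), and Scd1 gave 0.53 (0.0967).

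Markers of some somatic cells were higher on the same arrays, as were some of spermatogonia. Of 13 spermatogonial genes tested, 3 were called higher at 4 h and 4 at 8 h, with 0 called lower. In all, 6 and 7 of the 13 were above 0. Their summed signal was 16344 to 17800 at 4 h and 15785 to 17197 at 8 h, against 13794 to 15999 after withdrawal. The summed signal of the fibroblast list was 17159 to 20182 at 4 h and 16722 to 20730 at 8 h. After withdrawal it was 9596 to 15214, with the highest on replicate 3. All 14 fibroblast genes tested were above 0 at both times (median log2 differences 0.769 and 0.555). At each time 1 was called higher, against 0.614% of all probe sets at 4 h and 0.529% at 8 h. The Leydig and peritubular list summed to 298.6 to 376.4 at 4 h and 313.8 to 399.4 at 8 h, against 236.3 to 276.4 after withdrawal. The Sertoli list summed to 775.2 to 849.7 at 8 h against 665.5 to 724.1, and overlapped withdrawal at 4 h (621.5 to 695.9). With the fibroblast signal as a covariate, the 4 h difference of Scd2 was 0.71 (adjusted p = 0.104) and that of Scd1 was 1.19 (0.0232). The fibroblast sums of the 4 h and withdrawal arrays did not overlap, so this fit cannot separate fibroblast signal from group. The part of somatic cell RNA in these results was not tested.

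At 8 h limma called 0 of 24 against withdrawal, against 1.03% of all probe sets called. At an unadjusted p under 0.05 there were 7, against 12.9% of all. Scd1 read 518.4, 537.0 and 474.3 and remained between the groups (log2 difference 0.62, adjusted p = 0.108). Its other probe set read 496.3, 307.4 and 412.0 and gave 0.74 (adjusted p = 0.0876). Scd2 read 4684.7, 4768.7 and 3895.9, above withdrawal and below maintained (0.39, adjusted p = 0.182). Elovl6 read 406.9, 427.3 and 489.9, above every withdrawal array and within reach of the maintained ones (0.38, adjusted p = 0.212). Me1, whose brightest probe set read 398.7, 358.6 and 170.9 after withdrawal, was at 409.5, 395.6 and 430.3 (0.48, adjusted p = 0.419), above all 3 maintained arrays of 368.2, 258.8 and 350.6. Without withdrawal replicate 3 the Me1 difference from withdrawal was 0.12 (adjusted p = 0.879), that of Scd1 0.41 (0.245), and that of Acly turned from 0.12 to -0.11.

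**Figure D3:**
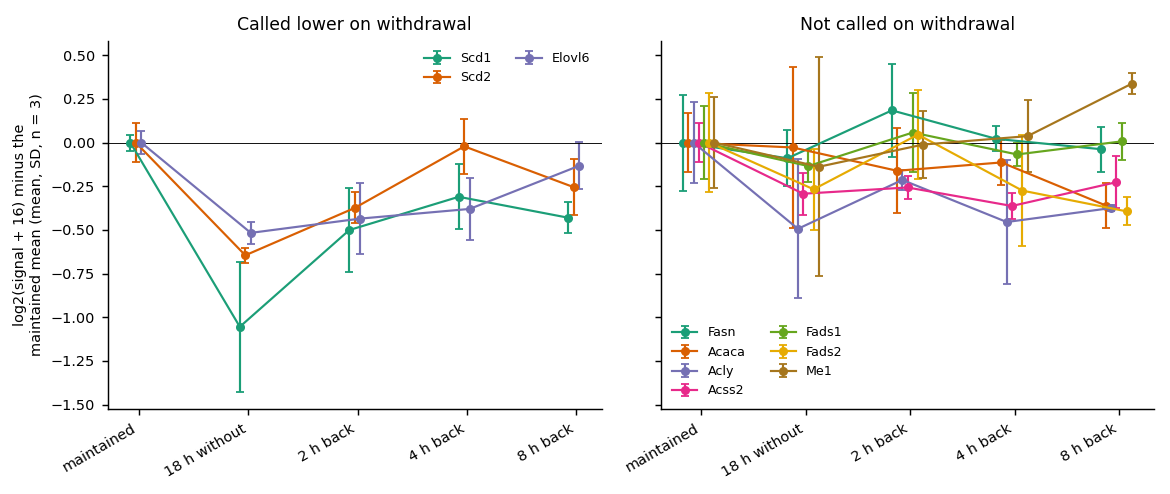
Mean log2(signal + 16) of each gene's brightest probe set relative to its maintained mean, by group (n = 3, bars are SD; lines join group means and carry no model). Left, the 3 genes called on withdrawal: Scd1 drops to -1.05 and Scd2 to -0.65, and Scd2 is near 0 again at 4 h; right, the other 7 genes, with means between -0.49 (Acly) and -0.03 (Acaca) after withdrawal.

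Set against maintained cultures, 0 of the 24 probe sets were called by limma at 2, 4 or 8 h of replacement. The shares of all probe sets called were 1.06%, 0.359% and 0.192%. At an unadjusted p under 0.05 there were 5, 6 and 3 member probe sets, against 13.6%, 10.5% and 14.3% of all. In percent of the maintained mean, Scd1 probe set 1415964_at was at 48.0 after withdrawal and at 70.7, 80.6 and 73.7 after 2, 4 and 8 h. Its arrays at all 3 times lay below every maintained array, and the 3 times overlapped one another. The other Scd1 probe set was at 43.6%, then at 62.1%, 65.3% and 76.2%, and its 8 h arrays overlapped the maintained ones. Scd2 probe set 1415822_at was at 63.7% after withdrawal and then at 77.1%, 98.7% and 83.9%, and only its 4 h arrays overlapped the maintained ones. The other Scd2 probe sets were highest at 8 h. Probe set 1415823_at was at 53.9%, then at 91.2%, 81.2% and 105%, and 1415824_at at 75.9%, then at 81.7%, 84.6% and 99.2%. Arrays of both overlapped the maintained ones at every time. Elovl6 probe set 1417404_at was at 68.9%, then at 73.6%, 76.4% and 91.1%, and only its 8 h arrays overlapped. The other Elovl6 probe sets were lower at 4 h than at 2 h. Probe set 1417403_at was at 73.9%, then at 79.1%, 65.8% and 94.5%, and 1442656_at at 70.0%, then at 85.2%, 77.7% and 110%. The brightest Acss2 probe set lay below the maintained arrays at all times, between 339.7 and 412.0 on the replacement arrays against 419.2 or more; the other overlapped them at 2 and 4 h and not at 8 h. Acly probe set 1439459_x_at was at 64.2% of maintained at 8 h (1792.8, 1940.9 and 1606.2 against 2516.2, 3042.9 and 2754.6), with no overlap, and was not called (log2 difference -0.63, adjusted p = 0.108). Between 8 h and 2 h of replacement 0 of 24 were called, against 0.807% of all probe sets, and 2 had an unadjusted p under 0.05, against 12.4% of all.

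The members did not share 1 profile. Over the 15 arrays the 45 pairs of genes had a median Pearson r of 0.21 on the log2 scale, and 4 pairs exceeded 0.7. These were Fasn with Fads1 (0.862), Scd1 with Scd2 (0.809), Acly with Acss2 (0.752) and Fasn with Fads2 (0.75). Acaca and Me1 ran opposite to each other (-0.89), and both had an extreme value on withdrawal replicate 3. Arrays of 1 group share their treatment, so these correlations describe the 15 arrays and carry no p. The profiles closest to Scd1 were those of Hhex (r = 0.946), Nefm (0.944) and Prelid3b (0.942). Those closest to Scd2 were Map9 (0.93), Zfp948 (0.93) and Spred1 (0.926), and those closest to Elovl6 were Xbp1 (0.966), Irx3 (0.928) and Hk2 (0.912). Fasn was closest to Hunk (0.927), which was also closest to Fads1 (0.892). Acaca was closest to Klhdc3 (0.958), Acly to Ppat (0.948), Acss2 to Col18a1 (0.919), Fads2 to Ddx39b (0.896) and Me1 to Prpf4b (0.962). The mean of the 10 standardised profiles was closest to Lonp2 (0.962) and Dmrt3 (0.934).

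Neighbouring enzymes were read from lists of related genes. Of 24 other genes of fatty acid synthesis, elongation and desaturation, 2 were called lower on withdrawal and 0 higher. The shares of all probe sets were 2.08% lower and 2.34% higher. The median log2 difference of the 24 genes was -0.216, against 0.0626 for all probe sets. Hsd17b12, the ketoacyl-CoA reductase that works with the elongases, was at 945 ± 40.7 after withdrawal against 1845 ± 45.8, 1.94-fold lower (log2 difference -0.95, adjusted p = 0.00146). It was called higher again at 4 h (0.75, adjusted p = 0.0274) and at 8 h (0.72, adjusted p = 0.024), comparisons that share the withdrawal arrays. Its other probe set was called on withdrawal (-1.30, adjusted p = 0.0311) but not at 4 h (0.82, 0.216) or 8 h (1.17, 0.0988). Acss1, the mitochondrial acetyl-CoA synthetase, was lower at -0.84 (adjusted p = 0.0102), a call lost without maintained replicate 3 (0.0589). Of 5 fatty acid activation genes, Acsl4, which prefers arachidonate, was called lower at 157 ± 15.2 against 334 ± 38.5 (-1.01, adjusted p = 0.002) and higher at 4 h (0.83, adjusted p = 0.0271). Its other probe sets gave -0.70 (adjusted p = 0.0445) and -0.72 (0.119) on withdrawal, and 0.20 (0.62) and 0.36 (0.497) at 4 h. The withdrawal calls of Hsd17b12 and Acsl4 were kept without any 1 of the 6 arrays. Their 4 h calls were lost without withdrawal replicate 1 or 2 or 4 h replicate 2, and that of Acsl4 also without 4 h replicate 3, at an adjusted p of 0.0512 to 0.138. The 8 h call of Hsd17b12 was lost without withdrawal replicate 1 or 2 or any 1 of the 8 h arrays (0.0607 to 0.111). The sterol synthesis list holds the other main branch of SREBP targets. Of its 18 genes tested, 12 were called lower on withdrawal, against 2.08% of all probe sets. The median of the 18 was -0.746, against 0.0626 for all probe sets. Of these 12, 6 kept the call without maintained replicate 3, with Dhcr7, Fdft1, Hsd17b7, Lss, Sqle and Stard4 losing it. Without maintained replicate 1 or withdrawal replicate 1, 8 kept it, and without any 1 of the other arrays 9 or 10 did.

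The transcripts of the regulators were not called in any comparison. Srebf1, which encodes the SREBP most tied to fatty acid synthesis, was at 967 ± 81 in maintained cultures and 1003 ± 180 after withdrawal (log2 difference 0.04, adjusted p = 0.927). Srebf2, tied to sterol synthesis, gave 0.00 and -0.03 for its 2 probe sets. Insig1, an SREBP target that retains the factors in the endoplasmic reticulum, was at 1470 ± 272 against 2297 ± 935 and gave -0.58 (adjusted p = 0.225). Scap, the SREBP escort protein, gave 0.34, Mlxipl, the carbohydrate-responsive factor ChREBP, gave 0.37, Nr1h3, the liver X receptor alpha, gave 0.03, and Mid1ip1, an activator of acetyl-CoA carboxylase, gave 0.43. Over the 19 tested genes of lipogenic transcription control, limma called 0 on withdrawal, with 5 at an unadjusted p under 0.05, against 20.1% of all probe sets, and the median was 0.0923. SREBP activity depends on cleavage of the protein, which these arrays do not measure.

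**Figure D4:**
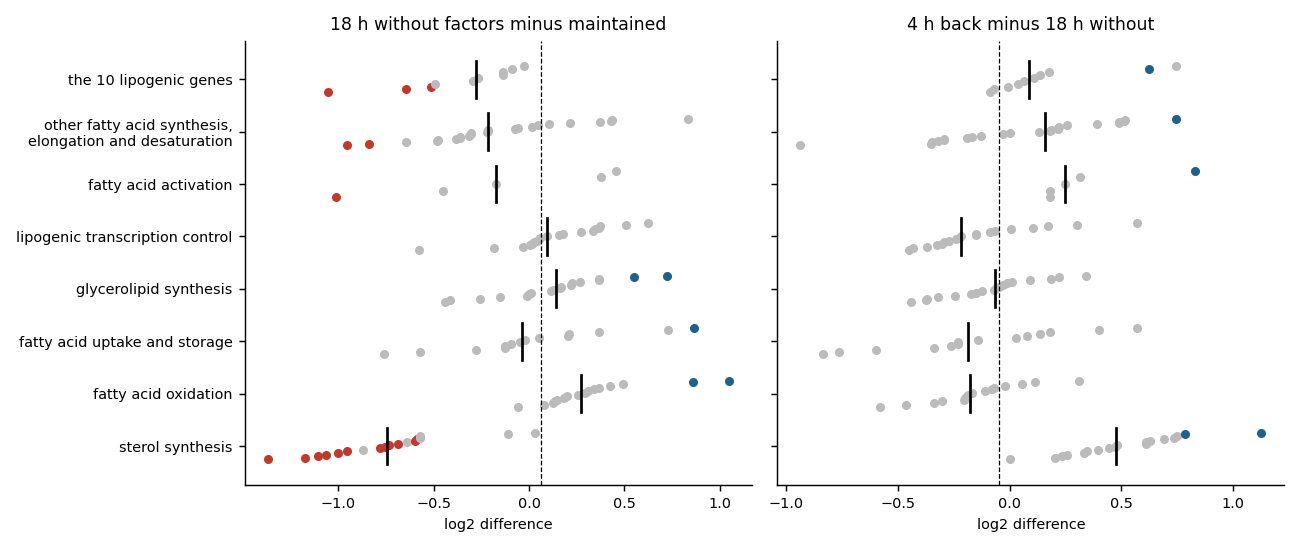
Log2 differences of single genes (points) in the 10 enzymes and 7 related lists, for withdrawal minus maintained (left) and 4 h of replacement minus withdrawal (right); both panels share the withdrawal arrays. Red and blue points were called lower and higher, short vertical bars are list medians and the dashed line is the median of all probe sets; on withdrawal the median of the 10 enzymes (-0.28) lies between that of all probe sets (0.0626) and that of sterol synthesis (-0.746).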

How the data were processed

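Total RNA of 15 samples in 5 groups of 3 was measured on single-colour arrays, 1 array per sample. The deposited values are intensity on a linear scale: MAS5 signal computed by the authors, per the submitters' processing notes. Not given in the sources used here: the MAS5 version, the chip and the genome build. The mean over the middle 96% of probe sets came to 150 on each array. Gene names came from the platform annotation in the reference tables: 34958 carried 1 symbol, 932 several and 9211 none. The 64 control probe sets were left out, and so was 1 probe set that names Acss2 together with another gene.

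Signals were transformed as log2(signal + 16), and the dimmest 40% of probe sets by mean value, with a cut near a signal of 30.5, were not tested, leaving 27023. Group means of all 15 arrays were fitted with limma 3.58.1 in R 4.3.3 (lmFit, eBayes with a variance trend, 10 residual degrees of freedom), tests were two-sided, and p-values were adjusted over all probe sets tested in each of 8 comparisons. The script was tested on simulated data. A gene's brightest probe set is the one with the highest mean log2 value. On withdrawal every tested probe set of the 10 enzymes is given, and at later times mainly the brightest. Of each related list up to 4 called genes a comparison could be named, and the nearest profiles were those with the highest Pearson r. The regulators were named whatever their result, except Nr1h2, which no probe set named alone. The members and lists were chosen with earlier results of these data known.

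The number of arrays limits the precision: standard errors of the members' log2 differences ran from 0.12 to 0.50. Pairing by replicate number was not evident, which does not show that the arrays are unpaired. Deviations of same-numbered arrays correlated at a median of 0.0282, against -0.00178 for other pairs. Of 30 same-numbered pairs 9 exceeded 0.1, as did 16 of 60 others, and the highest r were 0.448 and 0.3. Alternatives were other constants, scalings, filters, variance settings, units, a replicate block and leaving out each array; the covariate fits were chosen after seeing the data.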

Additional observations from a re-analysis of the deposited data

How the results depend on the processing

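The withdrawal calls were 3 of the 10 genes. Fitting only the groups compared gave 0, every other scaling, filter, constant, unit and covariate tried gave 2 or 3, and leaving out 1 array at a time gave 2 each time. At 4 h of replacement against withdrawal the count was 1. It was 2 with arrays shifted to 1 median, the dimmest 60% left out, array weights, 1 probe set per gene or the beta-actin covariate, and 0 without the filter on dim signal, without the variance trend or with only the groups compared. Leaving out single arrays gave 0 to 1. At 8 h against withdrawal the count of 0 became 2 with array weights, 1 with the mean of a gene's probe sets and 1 with the fibroblast covariate. At 2 h against maintained cultures it became 3 with array weights and 1 with the fibroblast covariate. The cause was not tested. The counts of the other comparisons stayed at 0 under all 20 alternatives, and no called difference changed sign. Of 4960 gene differences recomputed under the alternatives, 169 changed sign, over 66 of 248 differences; 0 of these were called in either setting.

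Scd1 kept its withdrawal call in 19 of 20 alternatives (adjusted p 0.000454 to 0.0606), Scd2 in 18 (up to 0.134) and Elovl6 in 11 (up to 0.146). The 4 h call of Scd2 was kept in 10 of 20 (0.00293 to 0.321). For Hsd17b12, Acsl4, Hadha and Hadhb the withdrawal call was kept in all 20.

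With the replicate number as a block, Scd1 on withdrawal had an adjusted p of 0.00532, Elovl6 0.034 and Scd2 at 4 h 0.045; the block changed no member's call, and 7 of 15 arrays correlated best with their own number.

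Over all probe sets the withdrawal count of 1195 fell to 514 without maintained replicate 2, 488 without maintained replicate 3 and 743 without withdrawal replicate 3, was 200 with only the groups compared and 3610 with array weights. The count of 237 at 4 h ran from 4 to 2354, that of 278 at 8 h from 8 to 1433 and that of 11 at 2 h from 0 to 71 over the alternatives, and with 1 array left out from 21 to 645, 43 to 286 and 6 to 11. Against maintained cultures the counts of 286, 97 and 52 at 2, 4 and 8 h ran from 44 to 1883, 3 to 432 and 0 to 1442, and that of 218 between 8 h and 2 h from 0 to 945. Shifting arrays to 1 median moved the median of all probe sets by -0.147 for 8 h against maintained and by -0.128 for 8 h against 2 h.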

Other observations

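Other branches of lipid metabolism held genes that were called higher on withdrawal. Of 16 fatty acid oxidation genes tested, 2 were called higher, against 2.34% of all probe sets, and 0 lower, with 15 above 0 and a median log2 difference of 0.275, against 0.0626 for all probe sets. The called genes were Hadha and Hadhb, the subunits of the mitochondrial trifunctional protein of beta-oxidation. Hadha was at 1309 ± 108 after withdrawal against 628 ± 105 in maintained cultures (SD, n = 3; log2 difference 1.05, limma adjusted p = 0.00414). Hadhb was at 1641 ± 79.3 against 895 ± 29.1 (0.86, adjusted p = 0.000387); another Hadhb probe set was called at 0.59 (0.049) and the last was not (0.28, adjusted p = 0.51). After 2 h of replacement both were still above maintained cultures, at 1.00 for Hadha (adjusted p = 0.0162) and 0.82 for Hadhb (0.00112); the Hadha call was lost without maintained replicate 2 or 3 or 2 h replicate 1 or 2 (0.0727 to 0.0927). By 8 h Hadhb was at 1090 ± 22.1, below withdrawal at -0.58 (adjusted p = 0.0169), a call that leaving out withdrawal replicate 2 or any 1 of the 8 h arrays took to between 0.052 and 0.0785.

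Among 18 glycerolipid synthesis genes, Agpat5 (0.72, adjusted p = 0.0129) and Gpam (0.55, adjusted p = 0.0482), acyltransferases of the early steps, were called higher on withdrawal and 0 lower, with a median of 0.143. The Agpat5 call was lost without maintained replicate 2 (0.0514) or withdrawal replicate 2 (0.0501), and the Gpam call without any array but withdrawal replicate 2 (0.0779 to 0.142) and in 13 of 20 alternatives in all. Among 14 genes of fatty acid uptake and storage, Slc27a1, a fatty acid transporter, was called higher (0.86, adjusted p = 0.0175) and 0 lower, with a median of -0.0357; its other probe set gave 0.24 (adjusted p = 0.705), and the call was lost without maintained replicate 2 or 3 or withdrawal replicate 1 or 3 (0.0518 to 0.067). Whether these lists differed from the 10 enzymes was not tested. Of all probe sets, 2.34% were called higher on withdrawal and 2.08% lower, with a median of 0.0626.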
